A study of Mus musculus with 18 samples.

Results

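Glucose is made and fructose is taken apart in the kidney by a small set of enzymes, and 7 of their genes were followed across healthy, contralateral and obstructed mouse kidneys: G6pc, Pck1, Pck2, Fbp1, Pcx, Khk and Slc37a4. They were chosen by name, as the rows of the deposited raw count table with these symbols, and all 7 of 7 were among the 31787 symbols of that table and among the 21050 genes that passed the filter on low counts. The rule uses names and no measured value, but the 7 genes were chosen with earlier results of these data known. In kidneys whose ureter had been tied, 6 of the 7 transcripts stood far below the healthy level and 1, Pck2, stood above it.

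Gluconeogenesis turns lactate, glutamine and glycerol into glucose by reversing glycolysis, and it needs enzymes of its own only where glycolysis is irreversible. Pyruvate carboxylase (Pcx) makes oxaloacetate in mitochondria, phosphoenolpyruvate carboxykinase converts it to phosphoenolpyruvate in the cytosol (Pck1) or in mitochondria (Pck2), fructose bisphosphatase (Fbp1) opposes phosphofructokinase, and glucose-6-phosphatase (G6pc), fed by the transporter Slc37a4 in the endoplasmic reticulum, releases free glucose. In the kidney this pathway belongs to the proximal tubule, whose cells also take up fructose and phosphorylate it with ketohexokinase (Khk).

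The 18 libraries, in 6 groups of 3, measured total RNA from a frozen piece of whole kidney, sequenced as stranded whole-transcriptome libraries in paired reads of 75 bases. The study set unilateral ureteral obstruction (UUO), in which 1 ureter is closed and the kidney above it scars, beside unobstructed kidneys and beside conditional knockouts (cKO). Healthy kidneys came from Cre-negative mice with floxed Twist (- FF, Cdh5-CreERT2;Twist) and were not obstructed. Contralateral kidneys, the unobstructed partners of obstructed ones, and WT UUO kidneys each came from 2 Cre-positive mice with unfloxed Twist (+ ++) and 1 Cre-negative mouse with floxed Twist (- FF), all of the Cdh5-CreERT2;Twist line. Twist cKO UUO kidneys carried Cre and floxed Twist (+ FF, Cdh5-CreERT2;Twist), and these 4 groups had a mixed C57BL6, 129sv and Balb/c background. Snail cKO UUO (+ FF, Cdh5-CreERT2;Snail) and Myc cKO UUO (+ FF, GGT-Cre;Myc) kidneys had a mixed C57BL6 and Balb/c background, so for these knockouts strain and genotype cannot be told apart. Mice were 12 weeks old at the endpoint, and 11 to 12 weeks in the Myc cKO group. Cdh5-CreERT2 is driven by an endothelial promoter and acts after tamoxifen, and GGT-Cre is driven by a promoter of tubular cells. No label ties a kidney to an animal, and the p-values therefore speak only of the spread between these 18 libraries. In whole-kidney RNA, fewer cells of a type and less RNA per cell cannot be told apart.

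Total counts ran from 52.64 to 91.34 M (10 to the power of 6) per library. The mitochondrial ribosomal RNAs took 44.6% to 50.3% of counts in healthy and 19.2% to 20.4% in WT UUO kidneys. They took 24.1% to 29.9% in Twist, 23.7% to 26.0% in Snail and 25.4% to 34.9% in Myc cKO UUO kidneys, with the highest value in Myc cKO UUO replicate 3. Without mitochondrially encoded genes, each of the 7 genes stayed on its side of the threshold in every comparison. Of the targeted genes, Twist1 was at 0.307 to 0.596 CPM (library counts scaled to a common total, with TMM factors) in Twist cKO UUO against 1.14 to 4.49 CPM in WT UUO, and it was called lower (adjusted p = 0.0172 by edgeR). Snai1 was at 1.69 to 2.27 against 2.40 to 3.44 CPM in Snail cKO UUO and WT UUO. Myc was at 18.8, 19.8 and 10.8 CPM in Myc cKO UUO replicates 1, 2 and 3, against 21.8 to 23.8 CPM in WT UUO. Neither passed the test (adjusted p = 0.487 and 0.217 by edgeR). Counts of Ddx3y above those of Xist marked 2 libraries as male in the Snail and in the Myc knockout group, and 1 in every other group.

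The 7 genes lie on 7 chromosomes of the mm10 build, so none shares a locus with another. By the GENCODE M21 annotation, G6pc spans chr11:101367561-101377903 on the plus strand, Pck1 chr2:173153048-173159273 (plus), Pck2 chr14:55540266-55551242 (plus) and Fbp1 chr13:62864753-62888282 (minus). Pcx spans chr19:4510472-4621752 (plus), Khk chr5:30921431-30931248 (plus) and Slc37a4 chr9:44396852-44402968 (plus). Pck2 shares 53 exonic bases with the antisense gene Gm10876, and the strand setting of the counting is not given in the sources used here, so reads over those bases cannot be assigned to a strand. Counts per gene pool all isoforms, including those of Khk.

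Promoter windows from RefSeq (build GRCm38.p6), 250 bases before to 50 after a start site, were found for all 7 genes, 10 windows in total. The windows of the 4 genes whose levels separate the patterns described here are printed 5′ to 3′ on the plus strand: the pair that fell most in obstruction (G6pc and Pck1), the gene that rose (Pck2) and the fructose enzyme (Khk). Capitals mark matches, on either strand, to ACGTCA (the core of a cAMP response element), CACGTG (an E-box) and TATAAA (the core box near many start sites). The windows are chr11:101367466-101367765 for G6pc, chr2:173152823-173153122 for Pck1, chr14:55540016-55540315 for Pck2 and chr5:30921309-30921608 for Khk.
G6pc: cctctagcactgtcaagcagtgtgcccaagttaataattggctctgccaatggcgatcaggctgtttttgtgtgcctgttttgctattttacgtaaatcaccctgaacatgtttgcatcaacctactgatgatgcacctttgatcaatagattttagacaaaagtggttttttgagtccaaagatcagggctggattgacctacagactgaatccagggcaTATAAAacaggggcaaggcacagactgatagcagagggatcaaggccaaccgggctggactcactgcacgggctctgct
Pck1: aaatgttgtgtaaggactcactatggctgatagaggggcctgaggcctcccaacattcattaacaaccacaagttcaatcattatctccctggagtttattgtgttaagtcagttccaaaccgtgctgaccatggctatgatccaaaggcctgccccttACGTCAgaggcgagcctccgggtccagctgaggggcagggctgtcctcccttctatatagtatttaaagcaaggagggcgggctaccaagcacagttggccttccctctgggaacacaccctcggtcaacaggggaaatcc
Pck2: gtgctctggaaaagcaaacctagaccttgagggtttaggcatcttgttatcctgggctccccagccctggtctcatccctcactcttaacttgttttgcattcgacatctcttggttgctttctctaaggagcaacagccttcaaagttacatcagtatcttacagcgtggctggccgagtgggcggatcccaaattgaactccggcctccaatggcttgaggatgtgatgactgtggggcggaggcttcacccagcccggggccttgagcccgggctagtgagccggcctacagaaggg
Khk: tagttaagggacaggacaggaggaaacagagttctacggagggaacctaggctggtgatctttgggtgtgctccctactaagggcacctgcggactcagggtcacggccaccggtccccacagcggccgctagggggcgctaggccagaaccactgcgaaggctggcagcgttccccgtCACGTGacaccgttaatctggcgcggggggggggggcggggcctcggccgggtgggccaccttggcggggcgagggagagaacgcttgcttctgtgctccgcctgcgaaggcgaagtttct
G6pc held TATAAA 29 bases before its start site. Pck1 held ACGTCA 91 bases before its start site. Khk held CACGTG 71 bases before its start site, and the Pck2 window held none of these words. Of the windows not printed, those of Slc37a4 held ACGTCA and TATAAA, 1 of the 2 Pcx windows held CACGTG, and the Fbp1 window held none. AAGTCCA, part of an HNF4 site, was searched as well and was in no window of these genes. The shorter word AGTCCA was not searched, but its letters stand in the printed window of G6pc. GTTAAT, part of an HNF1 site, was not searched, so no share over all windows is given for it. Its letters stand in the printed windows of G6pc and Khk, and on the opposite strand in that of Pck1. The absence of AAGTCCA therefore does not show that these windows lack other HNF4 words or words of other hepatocyte nuclear factors. Over all 32851 RefSeq windows of this length, ACGTCA was in 7.51%, AAGTCCA in 4.17%, CACGTG in 7.15% and TATAAA in 13.6%. A match describes the letters only.

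In healthy kidneys the cytosolic and mitochondrial carboxykinases stood at the ends of the range. Per kilobase of the longest CCDS transcript, the Pck1 level was 1111 ± 115 CPM (SD, n = 3) and the Pck2 level 3.35 ± 0.496 CPM. Between them came Fbp1 at 458 ± 108, G6pc at 327 ± 70.8, Khk at 180 ± 26.7, Slc37a4 at 92.5 ± 17.8 and Pcx at 76.1 ± 9.41 CPM per kilobase. The libraries of the neighbours Fbp1 and G6pc overlapped, as did those of Slc37a4 and Pcx. In WT UUO kidneys the same order no longer held: Pck1 was at 28.8 ± 5.81, Fbp1 at 27.7 ± 10.3, Khk at 11.7 ± 4.03, Slc37a4 at 8.91 ± 1.67, Pcx at 8.46 ± 1.97, Pck2 at 7.09 ± 0.715 and G6pc at 4.21 ± 2.19 CPM per kilobase. G6pc, the third in healthy kidneys, came last, and Pck2 lay above it. The 7 genes together took 0.322% to 0.347% of all counts in healthy and 0.0229% to 0.0353% in WT UUO kidneys.

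**Figure D1:**
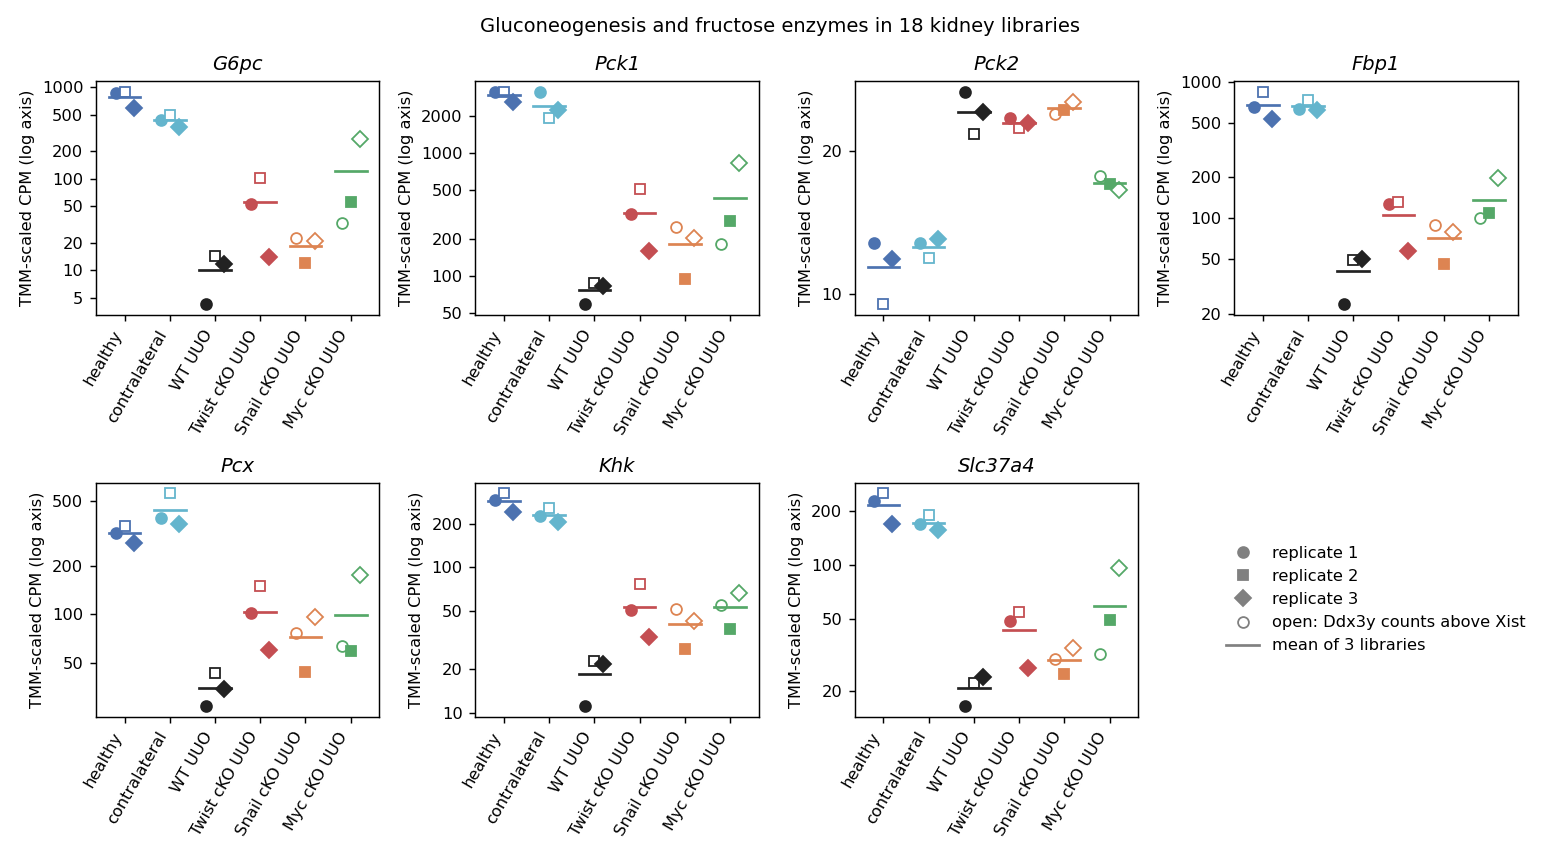
TMM-scaled CPM on a log axis for each gene in each of the 18 libraries, by group; circles, squares and diamonds are replicate 1, 2 and 3, open symbols are libraries with more Ddx3y than Xist counts, and lines are means of 3 libraries. For 6 genes all UUO libraries lie below all unobstructed ones, and for Pck2 all lie above, with the Myc cKO UUO libraries (16.5 to 17.7 CPM) between the unobstructed and the other obstructed ones.

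Obstruction in wild-type kidneys was tested first, against healthy kidneys. All 7 genes were called changed at an adjusted p under 0.05 (quasi-likelihood test of edgeR, adjusted over all genes by Benjamini-Hochberg): 6 fell and Pck2 rose. Over all 21050 genes, 27.1% were called lower and 29.2% higher in this comparison, so a call alone was common. The 7 had a median log2 fold change of -3.94, beside 0.05 over all genes tested. The WT UUO and healthy ranges did not overlap for any of the 7, and over all genes this held for 62.5%.

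At the entry to the pathway, Pcx was at 319, 353 and 275 CPM in the 3 healthy libraries and at 27.3, 43.6 and 34.5 CPM in the 3 WT UUO libraries. Its mean was 8.99-fold lower, a log2 fold change of -3.17 ± 0.45 (SE, adjusted p = 2.68e-05 by edgeR). Pcx supplies oxaloacetate to both carboxykinases, and those moved in opposite directions.

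Pck1, the cytosolic enzyme, was at 3129, 3136 and 2601 CPM in healthy and at 59.2, 88.2 and 82.8 CPM in WT UUO kidneys. Its mean was 38.5-fold lower (log2 fold change -5.27 ± 0.60, adjusted p = 3.91e-06 by edgeR). Pck2, the mitochondrial enzyme, was at 12.8, 9.52 and 11.9 CPM in healthy and at 26.6, 21.7 and 24.0 CPM in WT UUO kidneys. This was a rise of the mean by 2.12-fold (log2 fold change 1.08 ± 0.10, adjusted p = 5.24e-07 by edgeR), small in size but with little spread between libraries. Pck1 per Pck2, both per kilobase, was 312.5, 421 and 280.2 in the healthy libraries and 2.85, 5.19 and 4.40 in the WT UUO libraries. The transcript ratio of the cytosolic to the mitochondrial form thus came down from at least 280.2 in healthy kidneys to at most 5.19 in every obstructed wild-type kidney. In contralateral libraries this ratio was 311.2, 205.6 and 217.7.

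Fbp1, which removes a phosphate from fructose bisphosphate, was at 655, 847 and 530.5 CPM in healthy and at 23.4, 49.3 and 50.4 CPM in WT UUO kidneys. Its mean fell by 16.5-fold (log2 fold change -4.05 ± 0.42, adjusted p = 1.47e-06 by edgeR). WT UUO replicate 1 was the lowest library for Fbp1, as it was for the other 5 falling genes.

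At the exit of the pathway, G6pc was at 879, 899 and 593 CPM in healthy and at 4.26, 14.4 and 11.8 CPM in WT UUO kidneys. The mean was 77.8-fold lower (log2 fold change -6.28 ± 0.90, adjusted p = 3.36e-05 by edgeR), the widest difference of the 7 and also the one with the widest error. Slc37a4, the transporter that G6pc depends on, was at 228, 251 and 171 CPM in healthy and at 16.5, 22.1 and 24.0 CPM in WT UUO kidneys, a 10.4-fold lower mean (log2 fold change -3.38 ± 0.36, adjusted p = 2.13e-06 by edgeR). The enzyme and its transporter therefore did not keep their ratio. G6pc per Slc37a4, per kilobase, was 3.74, 3.47 and 3.38 in healthy and 0.251, 0.633 and 0.478 in WT UUO libraries, with no overlap. In contralateral libraries it was 2.55, 2.55 and 2.28, below every healthy and above every WT UUO library.

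Khk, which starts fructose breakdown, was at 292, 323 and 239 CPM in healthy and at 11.2, 22.7 and 21.6 CPM in WT UUO kidneys. Its mean was 15.4-fold lower (log2 fold change -3.95 ± 0.36, adjusted p = 5.76e-07 by edgeR). Against contralateral kidneys, all 7 genes were called in the same directions in WT UUO, with 26% of all genes called lower and 27.5% higher. The log2 fold changes were -5.43 for G6pc, -4.98 for Pck1, 0.94 for Pck2, -4.01 for Fbp1, -3.64 for Pcx, -3.63 for Khk and -3.04 for Slc37a4. All 7 calls were made again without any single library of either comparison.

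The contralateral kidney was set beside the healthy kidney to see whether the unobstructed partner differed. None of the 7 genes passed edgeR's test, none had an unadjusted p under 0.05, and DESeq2 and limma voom called none. Over all genes 2.26% were called. For 5 of the 7 genes the libraries overlapped. G6pc was the exception on the low side, at 443, 497 and 370.3 CPM in contralateral kidneys, all below the 3 healthy libraries (log2 fold change -0.86 ± 0.72, adjusted p = 0.593 by edgeR). Pcx was the exception on the high side, at 394, 558 and 362 CPM (log2 fold change 0.47 ± 0.41, adjusted p = 0.608 by edgeR). The 2 groups did not overlap for 20.4% of all genes, so 2 of 7 is close to the background. Pck1 was at 3111, 1913 and 2223 CPM, Pck2 at 12.8, 11.9 and 13.04 CPM and Fbp1 at 630.3, 737 and 622 CPM in contralateral kidneys. Khk was at 226, 257 and 205 CPM and Slc37a4 at 169, 189 and 158 CPM. Each of these ranges met the healthy range. Adipocytes also express Pck1 and Pcx, and the summed level of 7 adipocyte markers ranged from 25.5 to 162 CPM in healthy and from 56.4 to 251.5 CPM in contralateral kidneys. None of the 7 markers was called, and their part in the Pck1 and Pcx values was not tested.

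Each knockout was next compared with WT UUO. These comparisons share the 3 WT UUO libraries, so their values are given side by side and no likeness between them is drawn. In Myc cKO UUO kidneys all 7 genes were called, 6 higher and Pck2 lower, with 5.31% of all genes called higher and 6.91% lower. G6pc was at 33.1, 55.3 and 275 CPM in the 3 Myc cKO UUO libraries (log2 fold change 3.57 ± 0.80, adjusted p = 0.0122 by edgeR). Pck1 was at 182, 279 and 821 CPM (2.48 ± 0.53, adjusted p = 0.0104). For both genes replicate 3 was the highest library, and none of the 3 reached into the WT UUO range.

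Fbp1 in Myc cKO UUO kidneys was at 100.4, 108 and 197 CPM (log2 fold change 1.72 ± 0.38, adjusted p = 0.0115 by edgeR). Pcx was at 63.4, 59.7 and 176 CPM (1.51 ± 0.42, adjusted p = 0.0321). Replicate 3 was again the highest of the group for both. Slc37a4 was at 31.9, 49.9 and 96.2 CPM (log2 fold change 1.51 ± 0.34, adjusted p = 0.0125 by edgeR). Khk was at 54.8, 37.8 and 67.1 CPM (1.53 ± 0.33, adjusted p = 0.0107). Pck2 went the other way, at 17.7, 17.05 and 16.5 CPM, all below the 21.7 to 26.6 CPM of WT UUO kidneys (log2 fold change -0.50 ± 0.10, adjusted p = 0.00735 by edgeR). No library of the 2 groups overlapped for any of the 7; over all genes, 15.3% lay wholly higher and 16.6% wholly lower.

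These calls rested on single libraries in part. Without WT UUO replicate 1 none of the 7 genes was called in Myc cKO UUO, with adjusted p-values of 0.0504 for Khk to 0.127 for Pcx by edgeR. Without Myc cKO UUO replicate 3 only Pck2 was called, and the log2 fold changes fell to 2.12 for G6pc, 1.58 for Pck1 and 0.81 for Pcx. The call of Pcx was also lost without WT UUO replicate 2, without WT UUO replicate 3 and with the presence of Cre as a covariate, and no gene was called in a fit of these 2 groups alone.

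In Twist cKO UUO kidneys 4 of the 7 genes were called, all higher, with 2.97% of all genes called higher. Pck1 was at 317, 506 and 160.3 CPM (log2 fold change 2.09 ± 0.52, adjusted p = 0.0368 by edgeR) and Khk at 51.2, 76.6 and 33.5 CPM (1.54 ± 0.33, adjusted p = 0.0247). Fbp1 was at 128, 132.5 and 57.6 CPM (1.37 ± 0.37, adjusted p = 0.0481). Pcx was at 103, 149 and 60.5 CPM (1.57 ± 0.42, adjusted p = 0.0453). All libraries of these 4 genes lay above the WT UUO range, with replicate 2 the highest and replicate 3 the lowest. Slc37a4 also lay wholly above, which makes 5 of the 7, against 15.7% of all genes.

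G6pc was at 53.6, 101.6 and 14.0 CPM in Twist cKO UUO kidneys, where replicate 3 fell within the WT UUO range, and it did not pass the test (log2 fold change 2.47 ± 0.76, adjusted p = 0.0708 by edgeR). Slc37a4 was at 49.2, 54.7 and 26.8 CPM, above every WT UUO library without passing (1.06 ± 0.33, adjusted p = 0.0762). Pck2 was at 23.4, 22.3 and 22.9 CPM, inside the WT UUO range (-0.08 ± 0.10, adjusted p = 0.704). None of the 4 calls held without WT UUO replicate 1, without Twist cKO UUO replicate 1 or without replicate 2, and only that of Khk held without WT UUO replicate 2 or replicate 3. With the presence of Cre as a covariate or with no count filter only Khk was called, and in a fit of these 2 groups alone only Pck1.

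In Snail cKO UUO kidneys edgeR called none of the 7, with 0.299% of all genes called. At an unadjusted p under 0.05 the number was 4 of 7, beside 3130 of the 21050 genes, limma voom called 0 and DESeq2 called 1, Khk (adjusted p = 0.0193 by DESeq2). Khk was at 51.9, 27.3 and 42.8 CPM and Pck1 at 250.4, 94.3 and 204 CPM, all above the WT UUO range (log2 fold changes 1.14 ± 0.33 and 1.25 ± 0.51). Pcx was at 76.7, 44.3 and 96.0 CPM (1.04 ± 0.42) and Slc37a4 at 30.2, 24.8 and 34.6 CPM (0.52 ± 0.33), also without overlap. All 3 libraries lay above WT UUO for 12.8% of all genes, beside 4 of these 7. Fbp1 at 88.6, 46.4 and 79.1 CPM, G6pc at 22.7, 12.1 and 21.2 CPM and Pck2 at 23.9, 24.3 and 25.3 CPM met the WT UUO range.

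**Figure D2:**
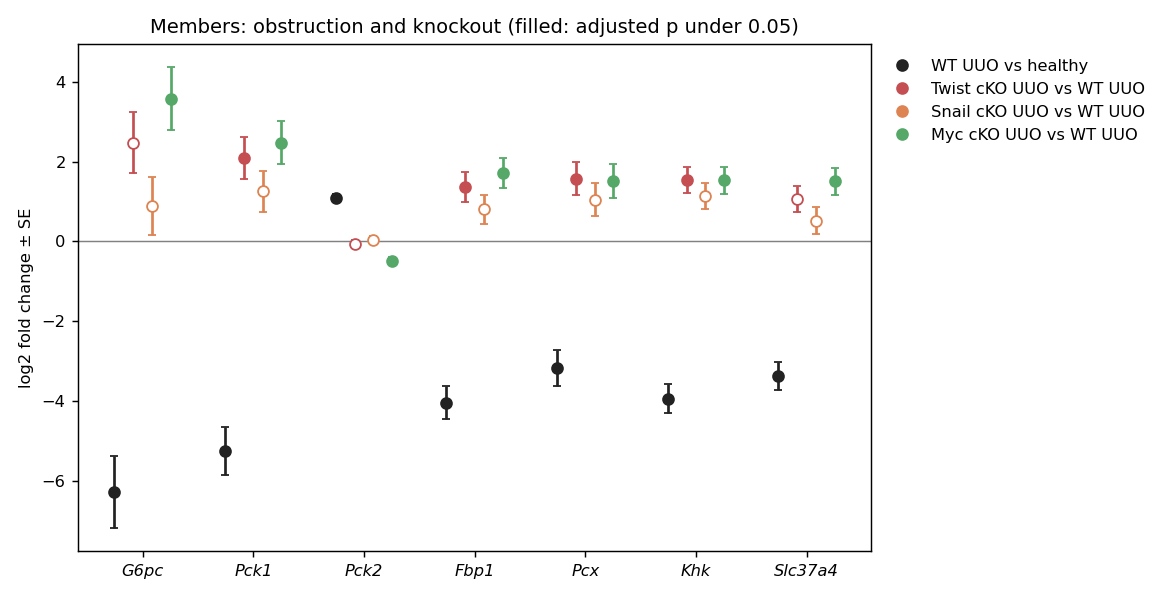
log2 fold change ± SE for each gene in WT UUO against healthy kidneys and in each knockout against WT UUO kidneys, with filled points at an adjusted p under 0.05. The obstruction differences run from -6.28 (G6pc) to 1.08 (Pck2), and the knockout differences from -0.50 (Pck2, Myc cKO UUO) to 3.57 (G6pc, Myc cKO UUO).

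The knockouts remained well below unobstructed kidneys. Against contralateral kidneys, the 6 falling genes were called lower in Twist cKO UUO (21.4% of all genes called lower), 6 again in Snail cKO UUO (22.8%), while Myc cKO UUO had 5 (22.5%). G6pc in Myc cKO UUO was the gene that missed (log2 fold change -1.85 ± 0.74, adjusted p = 0.0546 by edgeR), although its 3 libraries lay below the contralateral range, and without replicate 3 it was called (-3.31, adjusted p = 0.00214). Against contralateral kidneys the Pck1 log2 fold change was -2.88 in Twist, -3.72 in Snail and -2.499 in Myc cKO UUO kidneys. Pck2 was called higher than contralateral in all 3 knockouts, with log2 fold changes of 0.86, 0.96 and 0.44 (21.5%, 23.7% and 22% of all genes called higher). Pck1, Fbp1, Khk and Slc37a4 were highest in healthy kidneys, with contralateral libraries overlapping them, and lowest in WT UUO kidneys, and for each of these 4 genes the means of the knockouts lay between, with neighbours among them overlapping.

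Between knockouts, 3 pairs were compared. Twist and Snail cKO UUO differed in none of the 7 genes by edgeR, DESeq2 or limma voom, with 1 of 7 at an unadjusted p under 0.05 (G6pc, log2 difference 1.60 ± 0.74), beside 1373 of the 21050 genes, and 0.171% of all genes called. Myc cKO UUO differed from Twist cKO UUO in Pck2 alone (2.99% of all genes called) and from Snail cKO UUO in Pck2 alone (2.45%), in both cases lower in Myc. The log2 difference of G6pc between Myc and Snail cKO UUO, 2.70 ± 0.76 with no overlap of libraries, did not pass by edgeR (adjusted p = 0.0791) and passed by DESeq2 (adjusted p = 0.00612). For the remaining genes a p that missed the threshold does not show that the knockouts were alike: the SE of the log2 difference was 0.32 to 0.51 for Pck1, Fbp1, Pcx, Khk and Slc37a4.

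Markers of the proximal tubule, whose cells hold these enzymes, moved with the 6 genes. Of 18 proximal tubule markers, 17 fell and 1 did not pass in WT UUO against healthy kidneys, with a median log2 fold change of -4.01. Their summed level was 23300 to 49860 CPM in healthy, 22490 to 44450 in contralateral and 1394 to 4272 CPM in WT UUO kidneys. It was 4314 to 9504 CPM in Twist, 3124 to 7276 in Snail and 5413 to 8772 CPM in Myc cKO UUO kidneys, and no marker was at 0 in any group. Against WT UUO, 9 of the 18 markers rose in Twist cKO UUO (median log2 fold change 1.44), 10 in Myc cKO UUO (1.64) and 1 in Snail cKO UUO (1.09), namely Aqp1, named here because it was called. In every group the summed marker level was highest in a male library by Ddx3y and Xist counts. The part of sex in the summed levels was not tested, nor was the part of these cells in the enzyme values.

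Each enzyme was therefore also described beside those markers, as its log2 CPM minus the mean log2 CPM of the 18 markers in the same library, with the healthy mean set to 0. Fbp1, at -0.22 ± 0.58 (SD, n = 3), and Khk, at -0.12 ± 0.58, stayed near their healthy position beside the markers in WT UUO kidneys. Slc37a4, at 0.50 ± 0.86, and Pcx, at 0.69 ± 0.74, lay above their healthy position by less than their spread. G6pc was the lowest beside the markers, at -2.55 ± 0.31, with every WT UUO library between -2.88 and -2.28 and every healthy library between -0.43 and 0.40. Pck1 was at -1.40 ± 0.78, with its highest WT UUO library at -0.63 just below its lowest healthy library at -0.55. By Ddx3y and Xist counts the latter was male and the former was not. Contralateral libraries were at -0.44, -1.42 and -0.63 for G6pc, below every healthy and above every WT UUO library. For Pck1 they were at 0.45, -1.40 and 0.0305, and replicate 2, male by these counts, lay within the WT UUO range. The summed marker level was highest in the male library of the healthy and WT UUO groups, at 49860 CPM in healthy and 4272 CPM in WT UUO kidneys. The part of sex in these differences from the markers was not tested. Pck2 was at 4.97 ± 1.22, while the log2 mean of the markers itself stood at -3.88 ± 1.08 from healthy in WT UUO kidneys. In knockout kidneys G6pc was at -1.87 ± 0.57 (Twist), -2.66 ± 0.30 (Snail) and -1.11 ± 1.26 (Myc), and in the last group replicate 3 stood at 0.13, within the healthy range.

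**Figure D3:**
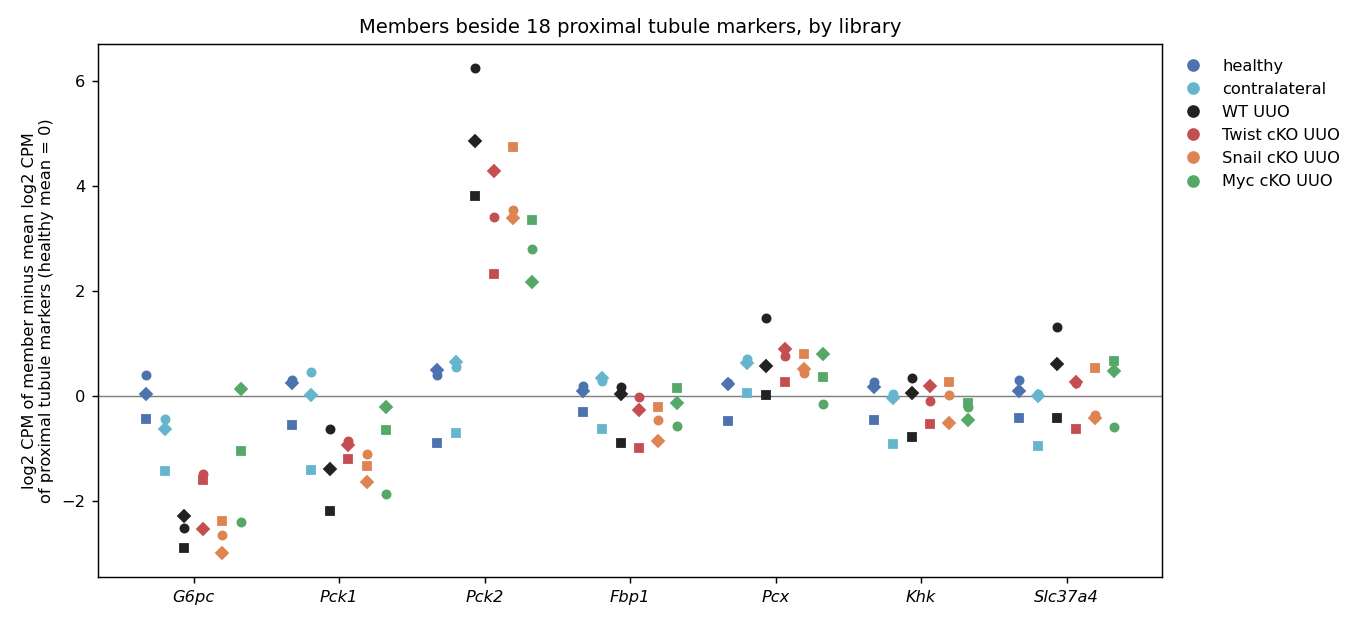
log2 CPM of each gene minus the mean log2 CPM of 18 proximal tubule markers in the same library, with the healthy mean at 0; each point is 1 library, coloured by group, with circle, square and diamond for replicate 1, 2 and 3. G6pc and Pck1 lie below the healthy points in WT UUO, Pck2 lies above them, and Fbp1 and Khk stay within about 1 unit of 0. The contralateral points of G6pc also lie below the healthy ones, and contralateral replicate 2 of Pck1 lies within the WT UUO range.

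Markers of other tubule segments and cell types moved as well. Of 9 markers of the loop of Henle and distal tubule, 8 were lower in WT UUO than in healthy kidneys (median log2 fold change -2.52), with a summed level of 4536 to 6512 CPM in healthy and 922 to 1938 CPM in WT UUO kidneys. Their sum was 2269 to 3186 CPM in Twist, 1311 to 2005 in Snail and 891 to 2437 CPM in Myc cKO UUO kidneys, and against WT UUO 3 of the 9 rose in the Twist and 2 in the Myc knockout. All 7 tubular injury markers rose in WT UUO, from 804.5 to 1358 CPM in healthy to 9513 to 11410 CPM in sum. The injury sum was 9152 to 11170 CPM in Twist, 9083 to 10670 in Snail and 9192 to 13410 CPM in Myc cKO UUO kidneys. The 7 fibroblast markers all rose in WT UUO against healthy kidneys (summed level 240 to 334 and 3709 to 7263 CPM), as did the 7 macrophage markers (80.2 to 159 and 671 to 1109 CPM) and the 6 urothelial markers. In Twist, Snail and Myc cKO UUO kidneys the fibroblast sum was 1812 to 2171, 2581 to 3580 and 772 to 3097 CPM. The macrophage sum was 419 to 554, 482 to 704 and 506 to 689 CPM in the same order. Krt20 stands in both the injury and the urothelial list. WT UUO replicate 1, the library with the lowest levels of the 6 falling enzymes, had the highest urothelial level of the WT UUO group, 397 CPM against 95.4 and 46.0, and the lowest proximal tubule level. Myc cKO UUO replicate 3, the highest for 6 of the 7 enzymes in its group, had the lowest fibroblast level, 772 CPM against 3097 and 1728. It also had the lowest Myc level of its group, 10.8 CPM against 18.8 and 19.8. The 7 markers of hepatocytes, which also make glucose, summed to 40.0 to 138 CPM in healthy and 10.7 to 27.2 CPM in WT UUO kidneys. Of the 6 that were tested, Alb, Ttr and Apoa1 fell (log2 fold changes -6.44, -5.40 and -3.09), Fgb rose (3.17), and Apoa2 and Serpina1a did not pass; these are named after their values were seen. The part of these cell types in the enzyme values was not tested.

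Inside groups, the highest library was mostly male for 6 of the 7 genes. The highest of the 3 libraries was male in 6 of 6 groups for G6pc, Pcx and Khk, in 5 of 6 for Pck1, Fbp1 and Slc37a4, and in 2 of 6 for Pck2. In the Snail and Myc knockout groups 2 of the 3 libraries were male, so a male library on top is the likelier outcome there. In every other group 1 of the 3 was male, so sex there cannot be told apart from that single library. The share of all genes with a male library on top was not computed. With sex as a covariate, the number of the 7 called stayed at 7 in Myc cKO UUO and became 5 in Twist cKO UUO, each against WT UUO, the added gene being G6pc (adjusted p = 0.0458 by edgeR).

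The rest of the pathway was read from lists of its genes. In WT UUO against healthy kidneys, 5 of 6 genes of fructose and polyol handling fell and 1 rose (median log2 fold change -3.33). The fructose transporter gene Slc2a5 fell by 4.36 on the log2 scale, sorbitol dehydrogenase (Sord) by 4.09 and glycerate kinase (Glyctk) by 2.99. Akr1b3, the aldose reductase that makes sorbitol from glucose, was the gene that rose (log2 fold change 2.17, adjusted p = 0.0269 by edgeR) and is named because of its value. Slc2a5 was at 52.9 to 81.1 CPM in healthy and 1.88 to 4.88 CPM in WT UUO kidneys.

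Of 16 genes that supply precursors, 13 fell and none rose (median -1.47). The malate dehydrogenase Mdh1 fell by 2.88 on the log2 scale, glycerol kinase (Gyk) by 3.54, the mitochondrial pyruvate carrier subunit Mpc2 by 2.02 and glycerol phosphate dehydrogenase (Gpd1) by 3.29. Of the 10 enzymes that both directions share, 9 fell (median -0.996), among them Gapdh by 1.10 and Pgk1 by 1.38. This list shares 1 gene with the fructose list. Of 5 transporters of glucose exit and reuptake, 4 fell, among them Slc2a2 by 2.87 and Slc5a2 by 3.45.

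The enzymes that run against the 7 were split in direction. Of 13 tested genes listed with the opposing glycolytic steps, 6 rose and 2 fell in WT UUO (median 0.57). The list also holds Ldha and the regulators Pfkfb1, Pfkfb2, Pfkfb3 and Pfkfb4, which are not opposing enzymes. Pfkfb1 (0.91) and Pfkfb4 (0.74) were among those that rose, Pfkfb2 (-0.55) was among those that fell, and Pfkfb3 (0.57) gave the median. Hexokinase Hk2, which phosphorylates the glucose that G6pc releases, was at 0.468 to 1.30 CPM in healthy and 25.9 to 48.7 CPM in WT UUO kidneys (log2 fold change 5.42 ± 0.42, adjusted p = 1.56e-07 by edgeR). Per kilobase, G6pc per Hk2 was 4291, 3855 and 1041 in healthy libraries and 0.200, 1.23 and 1.04 in WT UUO libraries. It was 10.51, 14.4 and 2.45 in Twist, 2.98, 2.18 and 3.32 in Snail and 4.70, 10.9 and 92.4 in Myc cKO UUO libraries. The phosphofructokinases split, with Pfkp higher (0.80) and Pfkm lower (-1.33).

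Close relatives of the 7 genes gave values of their own. G6pc3, the broadly expressed phosphatase, is named after its value was seen and had a log2 fold change of -0.20 ± 0.15 (adjusted p = 0.263 by edgeR) in WT UUO, and Fbp2 one of -0.70 ± 0.35 (adjusted p = 0.0987). Slc37a1 and Slc37a2, relatives of Slc37a4, rose by 2.34 and 1.68 on the log2 scale, and Slc37a3 fell by 0.49. In Myc cKO UUO against WT UUO kidneys Slc37a1 fell by 0.996 and Slc37a2 by 0.77.

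Of 19 regulators, 13 fell and none rose in WT UUO (median -0.76). The coactivator Ppargc1a fell by 2.15, Hnf4a by 2.52, Ppara by 2.76 and Esrra by 1.73 on the log2 scale. In Myc cKO UUO against WT UUO, 5 of the 19 rose, among them Ppargc1a (1.17), Hnf4a (1.22), Ppara (1.27) and Mlxipl (1.12), and in Twist cKO UUO 3 rose, among them Esrra (0.64) and Gcgr (0.90). Hk2 fell in both, by 1.56 in Myc and 1.31 in Twist cKO UUO. Of the 6 fructose genes 3 rose in Myc cKO UUO, among them Slc2a5 (1.42) and Sord (1.68). In Twist cKO UUO 3 rose as well, with Slc2a5 at 1.75 and Sord at 1.66. EdgeR called none of the genes of these pathway lists in the Snail knockout, with 4 of the 6 fructose genes, 5 of the 16 precursor genes and 7 of the 19 regulators at an unadjusted p under 0.05, beside 3130 of all 21050 genes.

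**Figure D4:**
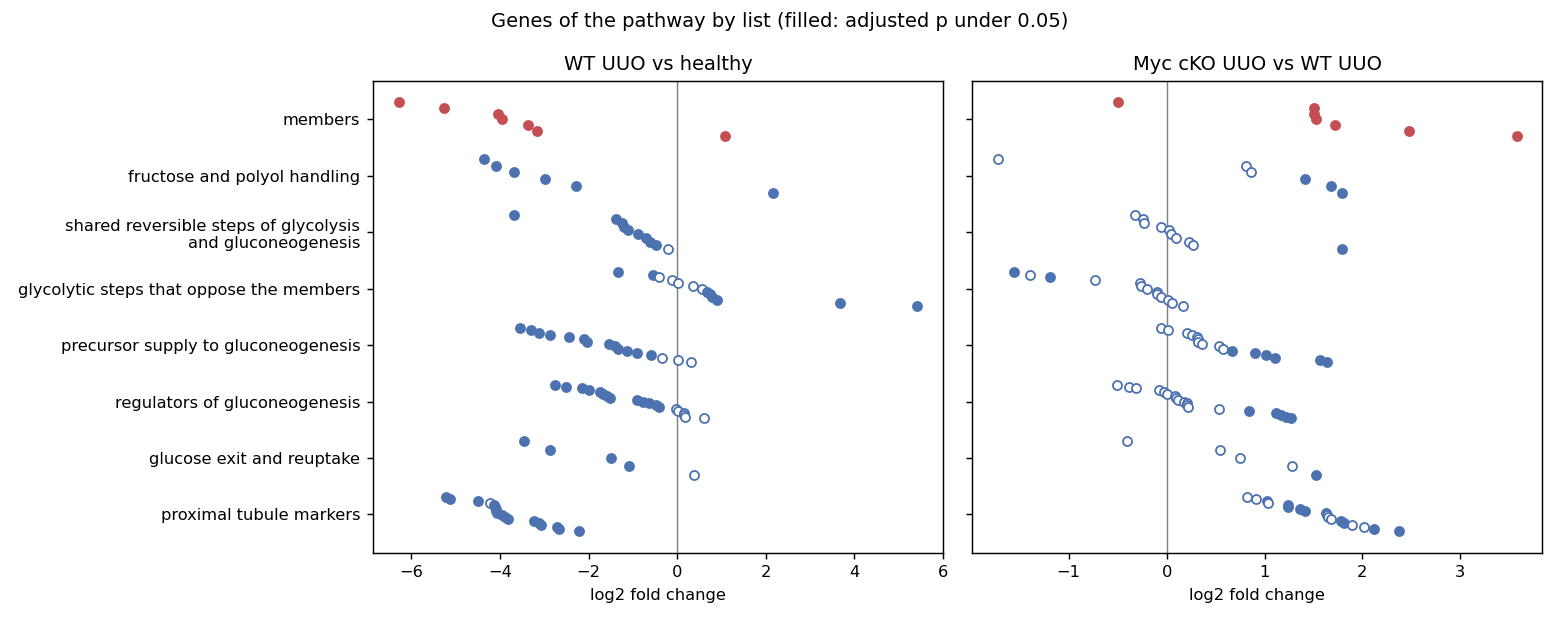
log2 fold changes of the 7 genes (red) and of the pathway lists and proximal tubule markers (blue), in WT UUO against healthy (left) and in Myc cKO UUO against WT UUO kidneys (right); filled points have an adjusted p under 0.05. The fructose and precursor lists lie mostly left of 0 in the left panel, with medians of -3.33 and -1.47. The list of opposing glycolytic steps, which also holds Ldha and the Pfkfb genes, spreads around 0.57.

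Likeness of pattern was measured over the 18 libraries as the root mean square difference of log2 CPM, each gene centred on its own mean, among 12377 genes at an average level of 1 log2 CPM or more. These values describe libraries that share groups and depth. The nearest genes of G6pc were Miox (0.61), Ces1e (0.63) and Ces1d (0.63), and those of Pck1 were Gnmt (0.46), mt-Atp6 (0.46) and Ass1 (0.47). Fbp1 was most like Aass (0.24), Aspa (0.26) and Sord (0.27), and Pcx most like Gpd1 (0.23) and Selenbp1 (0.26). For Khk the nearest were Thnsl2 (0.21), Cth (0.22) and Slc6a20b (0.23), and for Slc37a4 they were Galnt11 (0.14), Dcxr (0.20) and Oxct1 (0.21). Pck2, whose level varied least, was most like Wtip (0.09), Smurf1 (0.10) and Slc44a2 (0.11). Among the 7, Fbp1 and Khk lay closest to each other (0.29), G6pc lay nearest to Pck1 (0.61), and Pck2 was 1.74 to 2.88 from the others. Fbp1, Pcx, Khk and Slc37a4 lay within 0.45 of each other.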

How the data were processed

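Raw counts per gene were deposited by the authors. The submitters' processing notes name bcl2fastq 1.8.4, HTSeq and DESeq2, and mm10 as build. Neither aligner nor strand setting is given in the sources used here. The authors' second table, a normalized signal, equalled the counts divided by 1 size factor per library (largest relative deviation 5.22e-15) and was not tested. Of 24 columns, 18 matched a sample by name and 6 entered no step.

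Counts were tested with edgeR 4.0.16 in R 4.3.3: filterByExpr (21050 genes), TMM scaling (trimmed mean of M-values), and 1 robust quasi-likelihood fit over 18 libraries with 12 residual degrees of freedom, two-sided, with Benjamini-Hochberg adjustment over all genes and a threshold of 0.05. Each fold change is log2 with an SE, taken as its absolute value divided by the square root of the F statistic of its test. This SE is thus derived from the test and was not estimated separately. Levels are TMM-scaled CPM, and log2 levels used edgeR's prior count of 0.5, an average number of reads scaled to library size. Replicates are numbered in accession order, which pairs nothing. The steps were tested on simulated data.

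The 7 genes and the lists were chosen with earlier results of these data known. Named from each list are up to 4 genes with the smallest p in WT UUO against healthy kidneys and up to 4 in the comparison described; for likeness, the 3 nearest genes. Some of these genes are not reported here. Alternatives were DESeq2 1.42.0, limma 3.58.1 (voom), DESeq2's size factors, other count filters, a 2-fold minimum, Cre presence or sex as a covariate, a table without mitochondrially encoded genes, a fit of 2 groups alone, and each library left out in turn. Dak, Gyk and Emr1 are the table's names for Tkfc, Gk and Adgre1.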

Additional observations from a re-analysis of the deposited data

Results flagged for a closer look

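Pck2 differed between knockouts, which are tested here against each other and not only against WT UUO. Its level in Myc cKO UUO kidneys was below that in Twist cKO UUO kidneys by a log2 difference of -0.42 ± 0.10 (adjusted p = 0.0345 by edgeR), and below that in Snail cKO UUO kidneys by -0.52 ± 0.10 (adjusted p = 0.0151 by edgeR). All 3 Myc libraries (16.5 to 17.7 CPM) lay below all 6 of the others (22.3 to 25.3 CPM). The call against Twist cKO UUO was lost whichever library was left out (adjusted p = 0.0604 to 0.112), and that against Snail cKO UUO was lost without Snail replicate 1, Snail replicate 3 or Myc replicate 2. DESeq2 and limma voom made both calls.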

How the results depend on the processing

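Of 1344 log2 fold changes recomputed for the 7 genes over 12 comparisons and the alternatives, 1244 kept direction and side of the threshold, 69 dropped below it, 13 passed it and 18 changed sign, all of them values that were not called. Between Myc and Twist cKO UUO the log2 difference ran, without single libraries, from -0.35 to 1.84 for G6pc, -0.51 to 0.84 for Pck1, -0.0233 to 0.54 for Fbp1, -0.76 to 0.29 for Pcx, -0.26 to 0.33 for Khk and -0.0901 to 0.75 for Slc37a4. For Khk in that pair it was 0.0023 with a filter of 1 CPM in 3 libraries and 0.0235 by limma voom. Fbp1 in contralateral against healthy ran from -0.18 to 0.16, and was 0.0932 with the Cre covariate. Against WT UUO, Pck2 ran from -0.13 to 0.0089 in Twist and -0.0343 to 0.11 in Snail cKO UUO, and between Myc and Snail cKO UUO Pcx ran from -0.23 to 0.74. The cause was not tested. The number of the 7 called in WT UUO against healthy kidneys stayed at 7 throughout. Against contralateral kidneys Pck2 (log2 fold change 0.94) fell short with a 2-fold minimum, and the number was 7 whichever single library was left out. In Twist cKO UUO against WT UUO it was 1 without a count filter, with the Cre covariate or with only the 2 groups compared, and 0 to 4 when single libraries were left out; in Myc cKO UUO against WT UUO it was 0 with only the 2 groups compared and 0 to 7 without single libraries. In Snail cKO UUO it was 1 by DESeq2. Between Myc and Twist cKO UUO it was 0 with a 2-fold minimum, with only the 2 groups compared and without any single library. Between Myc and Snail cKO UUO it was 3 by DESeq2, 0 with a 2-fold minimum or with only the 2 groups compared, and 0 to 3 without single libraries. The cause of these shifts was not tested; fits of only 2 groups have fewer samples. No paired analysis was possible because the labels give no replicate numbers and do not tie kidneys to animals.

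Counts over all genes moved more. A 2-fold minimum left 6825 genes in WT UUO against healthy, 112 in contralateral against healthy, 6430 in WT UUO against contralateral, 475 in Twist and 783 in Myc cKO UUO against WT UUO, 4470, 5129 and 4475 in Twist, Snail and Myc cKO UUO against contralateral, and 62 and 105 in Myc against Twist and Snail cKO UUO. DESeq2 called 1299 in contralateral against healthy, 2421 and 773 in Twist and Snail cKO UUO against WT UUO, 152 between Twist and Snail, and 1582 and 1392 in Myc against Twist and Snail cKO UUO. Limma voom called 240 in contralateral against healthy and 182 in Snail cKO UUO against WT UUO. The Cre covariate left 75 and the sex covariate 718 in contralateral against healthy, and the sex covariate 1831 and 145 in Twist and Snail cKO UUO against WT UUO. Without a count filter Twist cKO UUO against WT UUO had 733. With only the 2 groups compared there were 3 in contralateral against healthy, 11 and 5 in Snail and Myc cKO UUO against WT UUO, 56 between Twist and Snail, and 15 and 16 in Myc against Twist and Snail cKO UUO. Leaving out single libraries gave 44 to 977 in contralateral against healthy, 13 to 1057, 15 to 141 and 797 to 3025 in Twist, Snail and Myc cKO UUO against WT UUO, 14 to 25 between Twist and Snail, and 194 to 515 and 57 to 691 in Myc against Twist and Snail cKO UUO. With 3 libraries a group, single libraries decide calls on the 7 genes in Twist and Myc cKO UUO against WT UUO. G6pc had the fewest raw counts of the 7 in a library, 360 in WT UUO replicate 1.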
